A study of Chlorocebus sabaeus with 6 samples.

Results

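AP-1 and early growth response (EGR) genes were examined in COS7 cells lacking the atlastins ATL2 and ATL3. The 10 genes were the 4 FOS family genes FOS, FOSB, FOSL1 and FOSL2, the 3 JUN family genes JUN, JUNB and JUND, the related factor gene ATF3, and EGR1 and EGR3. They were found by symbol, 1 row each, in a deposited table of 18050 genes, and all 10 passed the filter on low counts. COS7 is an SV40-transformed, fibroblast-like line from African green monkey kidney (Chlorocebus sabaeus). RNA was sequenced from 3 samples with the genotype ATL2/3 knockout (DKO) and 3 with the genotype WT, all grown in DMEM with fetal bovine serum and antibiotics and none with a stimulus named in the labels. Not given in the labels are whether replicates were separate cultures, how many knockout clones were used, and how long before lysis the medium was changed. The p-values therefore cover only variation among these 6 libraries, possibly technical, and the double knockout cannot be told apart from the clone or clones that carry it.

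AP-1 is a dimer of leucine zipper proteins that binds DNA and controls growth, migration and stress responses. JUN proteins pair with each other or with FOS proteins, whereas FOS proteins need a partner from another leucine zipper family, such as JUN. The mix of subunits present thus helps to set which dimers can form. FOS, FOSB, JUNB, ATF3, EGR1 and EGR3 are immediate-early genes: their mRNAs are made within minutes of serum, growth factors or stress, through MAP kinases acting on serum response factor (SRF) and its partners, and are quickly degraded. FOSL1 and FOSL2 follow later and are more stable. EGR proteins are zinc finger factors switched on by the same signals.

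Most of the 10 genes were lower in DKO, and they fell to very different degrees. JUNB, FOSB and EGR3 were 9.96-fold, 9.04-fold and 10.3-fold lower, FOS, FOSL2 and ATF3 fell between 1.63-fold and 2.47-fold, FOSL1 rose 1.36-fold, and JUN, JUND and EGR1 were not called. A gene was called at an adjusted p below 0.05 in edgeR's quasi-likelihood test with Benjamini-Hochberg adjustment over 13094 genes. Of the 10 genes, 7 were called, 6 lower and 1 higher. The genotypes differed throughout the transcriptome, with 45.5% of all tested genes called, 22.2% lower and 23.3% higher. The FPKM values of the 2 groups did not overlap for 8 of the 10 genes, 7 lower and 1 higher, and for 63.2% of tested genes, 34.1% lower and 29.1% higher. A decrease of at least 8-fold was called in 3 of the 10 genes and in 4.69% of tested genes. The median log2 fold change, DKO over WT, was -0.92 for the 10 genes and -0.01 for all tested genes. The 10 genes were chosen with earlier results of these data known, so these counts and medians only describe them.

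The libraries held 14197344 to 15693049 estimated counts in DKO and 14923619 to 15127039 in WT. Both targeted mRNAs were reduced in DKO, ATL2 at a log2 ratio of -2.21 (edgeR adjusted p = 0.00029) and ATL3 at -2.83 (edgeR adjusted p = 3.7e-05). DKO replicate 3 stood apart from DKO replicates 1 and 2 on the second principal component (9.4% of the variance), and without it 74.6% of tested genes were called, 38.6% lower and 36% higher. Of the 10 genes, 7 were then lower and 1 higher, since JUND joined those called. Of 11 fibroblast markers, VIM, FN1 and S100A6 were abundant in both groups and 5 (COL1A2, COL3A1, THY1, DCN and POSTN) lay under 1 FPKM in both. Summed levels of that list were 1870 to 1990 FPKM in DKO and 4230 to 4350 in WT, with 2 markers called higher and 3 lower (1 higher without WT replicate 1 or 2). Epithelial markers summed to 1330 to 1720 FPKM in DKO and 1330 to 1450 in WT, most of it KRT7 and KRT8. Of 9 tested, 3 were higher and 5 lower. CDH1 and CLDN4 were 51.8-fold and 56.4-fold lower, EPCAM was 2.53-fold higher, and ESRP1 was at 0 in DKO. CLDN7 was also at 0 in DKO, but had only 1 count in each WT library and was not tested. Endothelial markers summed to 15.2 to 15.8 FPKM in DKO and 0.36 to 0.45 in WT. Nearly all of the DKO sum was TEK, at a mean of 15.1 FPKM in DKO and 0.0467 in WT (291-fold higher). ERG in DKO and KDR in WT were at 0. Immune markers summed to 24.9 to 37.4 FPKM in DKO and 21.5 to 24.4 in WT. Of these, TYROBP was at 0 in every sample, CD3E was at 0 in DKO and CD14 in WT, and LYZ was the 1 gene called, higher in DKO (2 genes without DKO replicate 2, none without WT replicate 3). The part of these shifts in the results below was not tested, and in bulk RNA fewer cells of a kind and less RNA per cell cannot be told apart.

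**Figure D1:**
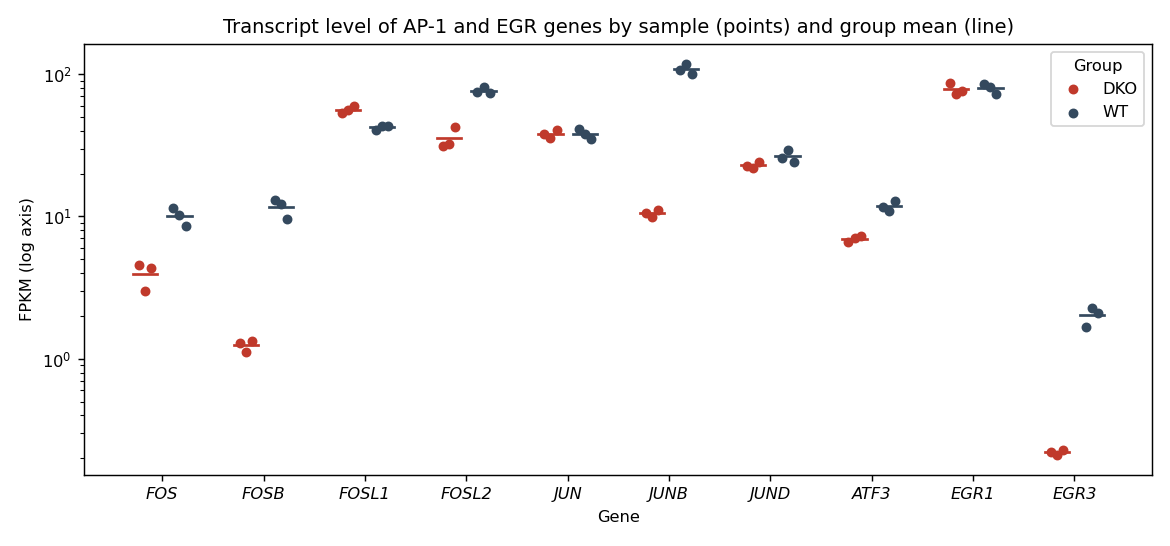
Transcript level in FPKM (fragments scaled to transcript length and library depth, log axis) of each gene in the 3 DKO samples and the 3 WT samples, with a line at each group mean. JUNB, FOSB and EGR3 have the widest gaps, with means of 10.5 FPKM in DKO and 109 in WT for JUNB, 1.25 in DKO and 11.6 in WT for FOSB, and 0.22 in DKO and 2.02 in WT for EGR3, while the points of JUN and EGR1 overlap.

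JUNB encodes the JUN protein often described as a restraint on JUN-driven growth. JUNB (gene ID 103233990) had 10.57, 9.91 and 11.1 FPKM in the DKO samples, against 106.6, 118.56 and 100.46 FPKM in the WT samples. Every DKO sample was far below every WT sample, with no overlap. The means were 10.5 ± 0.596 FPKM in DKO and 109 ± 9.2 FPKM in WT (SD, n = 3 each), giving a log2 fold change of -3.32 ± 0.13 (SE) with an edgeR adjusted p = 6.8e-06. These levels rest on 254, 236 and 304 estimated counts in DKO and 2704, 2995 and 2560 in WT. Of all tested genes, 4.34% had a more negative fitted fold change than JUNB.

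JUN, the founding member of the family, had 37.96, 35.66 and 40.49 FPKM in DKO, against 40.87, 38.13 and 35.03 FPKM in WT. The groups overlapped, and both means were 38 FPKM. The log2 fold change was 0.05 (edgeR adjusted p = 0.78), with a 95% interval from -0.23 to 0.32. JUND, which is present in most resting cells, had 22.62, 22.04 and 24.07 FPKM in DKO, against 25.87, 29.47 and 24.25 FPKM in WT. The FPKM values of JUND did not overlap, but its TMM-normalized values did. Its log2 fold change was -0.16 (edgeR adjusted p = 0.37), with a 95% interval from -0.48 to 0.16. Without DKO replicate 3 JUND was called lower, at a log2 fold change of -0.24 (edgeR adjusted p = 0.0046).

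The JUN family pool was lower in DKO and differently composed. Its summed level was 71.2, 67.6 and 75.7 FPKM in DKO and 173, 186 and 160 FPKM in WT, or 41.3% of the WT mean. JUNB made up 14.7 ± 0.111% of the family's FPKM in DKO and 62.7 ± 1.11% in WT (SD, n = 3 each). JUN was the largest part in DKO, with 53.2 ± 0.407%, against 22 ± 1.55% in WT. JUND made up 32.1 ± 0.46% in DKO and 15.3 ± 0.467% in WT. The ratio of JUNB to JUN was 0.277 ± 0.00235 in DKO and 2.86 ± 0.251 in WT. Each of these differences gave p = 0.1 in an exact two-sided permutation test, the smallest that 3 samples against 3 allow.

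Within the FOS family, FOSB showed the largest decrease. FOSB encodes an inducible partner of JUN proteins. FOSB (gene ID 103234863) had 1.3, 1.11 and 1.34 FPKM in DKO, against 13.06, 12.27 and 9.62 FPKM in WT. The lowest WT sample was several times above the highest DKO sample. The means were 1.25 ± 0.123 FPKM in DKO and 11.6 ± 1.8 FPKM in WT, giving a log2 fold change of -3.18 ± 0.18 (SE) with an edgeR adjusted p = 2.4e-05.

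FOS, the prototype immediate-early gene, had 4.52, 2.97 and 4.33 FPKM in DKO, against 11.4, 10.18 and 8.63 FPKM in WT. The groups did not overlap, and DKO replicate 2 was the lowest of the 6 samples. Its log2 fold change was -1.30 ± 0.21 (SE), with an edgeR adjusted p = 0.0022. FOSL2, which encodes the FRA-2 protein, had 31.38, 32.51 and 42.59 FPKM in DKO, against 75.3, 81.6 and 73.1 FPKM in WT. DKO replicate 3 lay above the other DKO samples but well below all WT samples. The log2 fold change of FOSL2 was -1.13 (SE 0.14, edgeR adjusted p = 8e-04).

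FOSL1 was the 1 gene of the 10 that was called higher. It encodes FRA-1, a late and comparatively stable FOS protein associated with migratory and mesenchymal cells. FOSL1 (gene ID 103225555) had 52.88, 55.88 and 59.57 FPKM in DKO, against 40.76, 43.38 and 43.31 FPKM in WT. Each DKO sample lay above each WT sample. The means were 56.1 ± 3.35 FPKM in DKO and 42.5 ± 1.49 FPKM in WT, giving a log2 fold change of 0.45 ± 0.11 (SE) with an edgeR adjusted p = 0.016. FOSL1 was no longer called without WT replicate 1 (0.42, edgeR adjusted p = 0.084), WT replicate 2 (0.45, edgeR adjusted p = 0.060) or WT replicate 3 (0.46, edgeR adjusted p = 0.064).

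The FOS family pool summed to 90.1, 92.5 and 108 FPKM in DKO and 141, 147 and 135 FPKM in WT. FOSL1 was its largest part in DKO, at 58.1 ± 2.64%, against 30.2 ± 1.71% in WT. FOSL2 held 36.5 ± 2.6% in DKO and was the largest part in WT, at 54.4 ± 0.887%. FOSB held 1.3 ± 0.13% in DKO and 8.25 ± 1.08% in WT, and FOS 4.08 ± 0.905% in DKO and 7.14 ± 0.876% in WT. The ratio of FOSL1 to FOSL2 was 1.69, 1.72 and 1.4 in DKO and 0.541, 0.532 and 0.592 in WT. FOS family transcripts outnumbered JUN family transcripts per length in DKO, with a ratio of 1.35 ± 0.0806, whereas the ratio in WT was 0.815 ± 0.0258. On estimated counts not scaled to length the ratio was 1.05 ± 0.046 in DKO and 0.872 ± 0.0265 in WT, a difference of 0.181 in place of 0.538. Each of these differences gave p = 0.1 in an exact two-sided permutation test (n = 3 each), again the smallest possible.

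**Figure D2:**
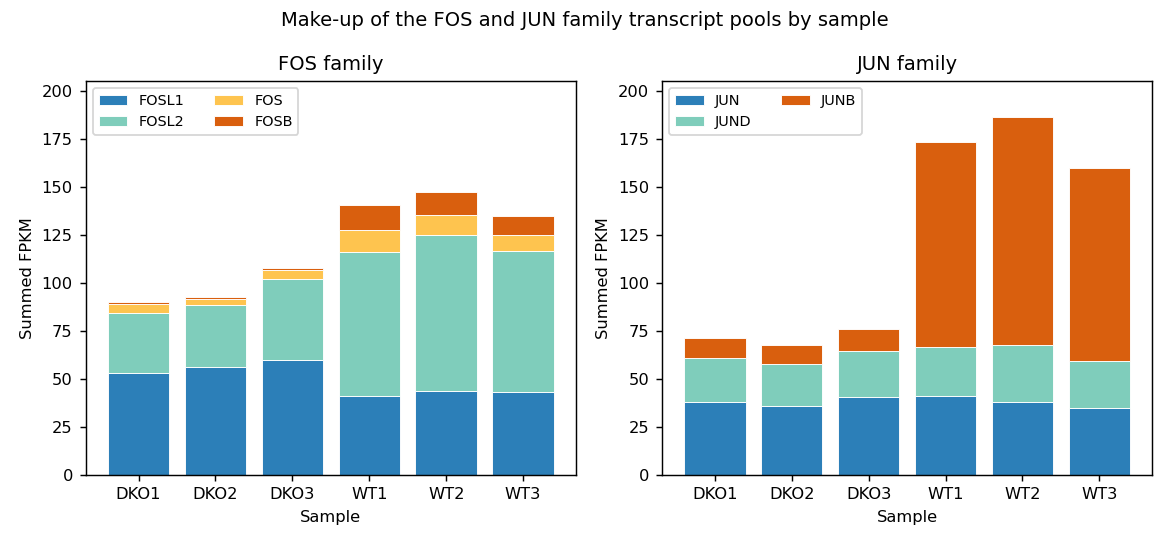
Stacked FPKM of the FOS family (left panel) and the JUN family (right panel) in each of the 3 DKO and 3 WT samples, with 1 colour per gene. The JUN family bars reach 67.6 to 75.7 FPKM in DKO and 160 to 186 FPKM in WT, and the difference lies mainly in the JUNB segment.

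ATF3, a stress-induced factor that pairs with JUN proteins and often represses its targets, had 6.61, 7.05 and 7.32 FPKM in DKO, against 11.62, 10.97 and 12.77 FPKM in WT. The groups did not overlap, and the step between them was smaller in fold than for the other genes called lower. Its log2 fold change was -0.71 ± 0.13 (SE), with an edgeR adjusted p = 0.0041.

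The EGR genes differed from each other. EGR1, the main serum-induced member, had 86.96, 72.8 and 76.64 FPKM in DKO, against 85.36, 80.52 and 71.92 FPKM in WT. The groups overlapped over most of their ranges, and the log2 fold change was 0.03 (edgeR adjusted p = 0.83), with a 95% interval from -0.23 to 0.30. EGR3, an inducible relative known in mice for its role in muscle spindles, had 0.22, 0.21 and 0.23 FPKM in DKO, against 1.68, 2.28 and 2.1 FPKM in WT. EGR3 was the least abundant of the 10 genes in both groups, with 10, 9 and 11 counts in the DKO libraries and 91, 113 and 123 in the WT libraries. Its log2 fold change was -3.37 ± 0.21 (SE), with an edgeR adjusted p = 3.4e-05. At these counts the counting error alone is 0.28 on the log2 scale, above the SE of the fit. Summed over libraries, EGR3 in DKO was 9.36% of WT as a share of the counts, with an exact 95% counting interval from 6.21 to 13.6% that covers counting error alone. Because EGR1 supplied 99.7% of the pair's FPKM in DKO and 97.5% in WT, their summed level was 79 ± 7.33 FPKM in DKO and 81.3 ± 6.64 FPKM in WT (n = 3 each, exact two-sided permutation p = 0.8).

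**Figure D3:**
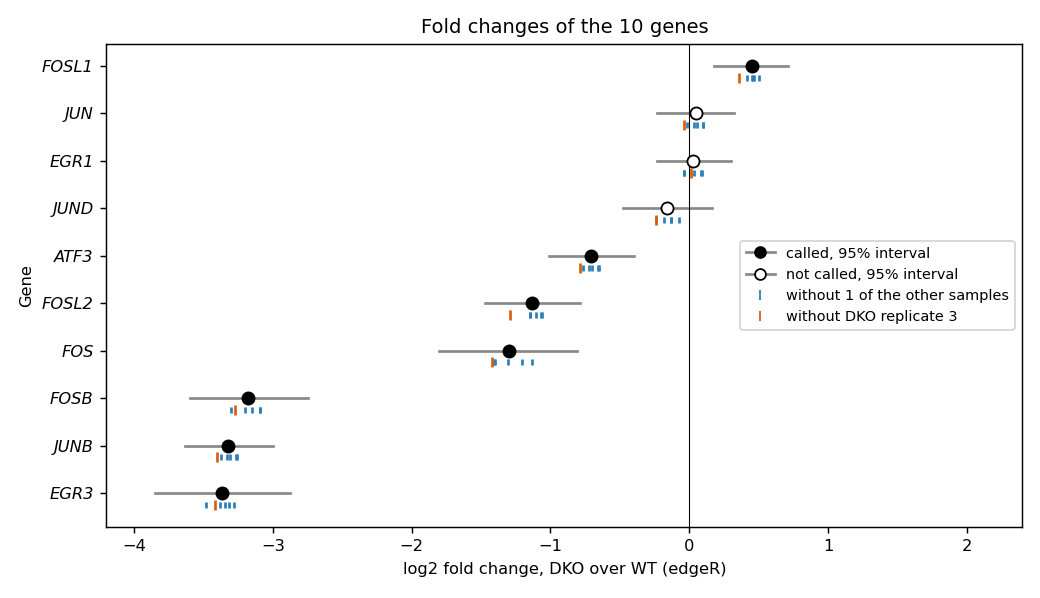
Log2 fold change, DKO over WT, of the 10 genes by edgeR (circles, filled where called) with 95% intervals, and the values after leaving out 1 sample (ticks). EGR3, JUNB and FOSB lie at -3.37, -3.32 and -3.18, FOSL1 at 0.45, and the intervals of JUN, EGR1 and JUND include 0.

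The order of levels within the set changed with genotype. In DKO the mean FPKM ran EGR1, FOSL1, JUN, FOSL2, JUND, JUNB, ATF3, FOS, FOSB and EGR3, and among neighbours in this order JUN and FOSL2 alone overlapped over samples. In WT it ran JUNB, EGR1, FOSL2, FOSL1, JUN, JUND, ATF3, FOSB, FOS and EGR3. The WT neighbours EGR1 and FOSL2, FOSL1 and JUN, ATF3 and FOSB, and FOSB and FOS overlapped. JUNB lay above 50.3% of tested genes in DKO and above 93.2% in WT. EGR1 lay above 90.1% in DKO and 90.5% in WT.

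Similar profiles were sought for EGR3 and FOSL1, the lowest and the highest called fold change of the set. Likeness was the root mean square difference of centred log2 CPM over the 6 samples. The genes closest to FOSL1 were TGFBRAP1 (0.022), ITFG2 (0.026) and NPC1 (0.027), with log2 fold changes of 0.48, 0.43 and 0.46. All 3 shared with FOSL1 a highest value in DKO replicate 3, and all 3 lost their edgeR call without any 1 WT sample (adjusted p between 0.053 and 0.10). Closest to EGR3 were TIMP4 (0.11), TSPOAP1 (0.12) and NXPH3 (0.12). TIMP4 and NXPH3 had 0 counts in every DKO library and were at least 4.78-fold and 5.43-fold lower against a floor of 3 counts per library. At such counts the log2 CPM depends on the added prior count. TSPOAP1 had 0.207 ± 0.0306 FPKM in DKO and 1.82 ± 0.0907 FPKM in WT, a log2 fold change of -3.12.

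Partners, upstream regulators, fellow immediate-early genes, targets and turnover factors of the 10 were described from lists, by counts called and medians. The lists too were chosen with earlier results of these data known, so their counts and medians are descriptive. Over all these lists together, 39 of 130 tested genes were higher and 43 lower, 63.1% called against 45.5% of all tested genes, with a median log2 fold change of -0.19. For each list below, the shares to compare are 23.3% of all tested genes higher and 22.2% lower. Without DKO replicate 3 these shares are 36% and 38.6%. Of 10 tested leucine zipper partners of FOS and JUN proteins, 3 were higher and 3 lower (median log2 fold change -0.06). The small MAF genes MAFF and MAFK, whose products form dimers with FOS and with other leucine zipper proteins, rose by 1.41 and 0.99. MAFF had 32.5 ± 1.28 FPKM in DKO and 12.6 ± 0.357 FPKM in WT (edgeR adjusted p = 6.8e-05), and MAFK had 28.2 ± 0.772 FPKM in DKO and 14.9 ± 0.627 FPKM in WT (edgeR adjusted p = 0.00033). The 3 decreases were BATF2, ATF2 and MAFG. No gene of the list was called lower without WT replicate 1 or 2, and 1 was without DKO replicate 1, DKO replicate 2 or WT replicate 3. EGR2, an EGR family gene, and NAB1 and NAB2, which encode EGR corepressors, were tested, and none was called by edgeR, DESeq2 or limma-voom, and 0 had an unadjusted p below 0.05 in any of these tests. NAB2 had 21.5 ± 3.89 FPKM in DKO and 19 ± 0.56 FPKM in WT. EGR4 did not pass the filter on low counts, with 6, 4 and 5 counts in the DKO libraries and 0 in every WT library. Without the filter EGR4 was called higher, by edgeR (adjusted p = 0.0098) and by limma on log2(FPKM + 1) (adjusted p = 0.0014).

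Of 9 genes for SRF, its ternary complex and myocardin-related partners and CREB factors, 3 were lower and none higher (7 lower and 1 higher without DKO replicate 3), with a median of -0.45. Of all tested genes 22.2% were lower, and 38.6% without DKO replicate 3. At an unadjusted p below 0.05 the count of higher genes was also 0 by edgeR, DESeq2 and limma-voom. ELK4, a ternary complex factor, fell to 1.51 ± 0.489 FPKM in DKO, against 3.94 ± 0.634 FPKM in WT (log2 fold change -1.36, edgeR adjusted p = 0.0038). MRTFB, an SRF coactivator, fell by 0.61 (edgeR adjusted p = 0.0086). CREM, a CREB family gene, fell by 0.71 (edgeR adjusted p = 0.016, and not called without WT replicate 2 or 3).

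MAP kinase genes went both ways, with 6 of 21 higher and 6 lower (median -0.04, and 3 lower without WT replicate 3). MAPK12 and MAPK11, which encode p38 kinases, had the largest increases of the list. The p38 genes MAPK14 (-0.21, edgeR adjusted p = 0.24) and MAPK13 (0.68, edgeR adjusted p = 0.17) were not called. MAPK14 had 24.9 ± 3.06 FPKM in DKO and 27.8 ± 0.94 FPKM in WT. MAP2K6, which encodes a kinase that activates p38, had the largest decrease of the list. MAPK12 had 12.8 ± 1.29 FPKM in DKO and 1.25 ± 0.0907 FPKM in WT (log2 fold change 3.53, edgeR adjusted p = 1.1e-05), and MAPK11 rose by 1.70 (edgeR adjusted p = 0.00064). MAP2K6 had 0.07 ± 0.052 FPKM in DKO and 0.487 ± 0.15 FPKM in WT (log2 fold change -2.82, edgeR adjusted p = 0.0035), on 6, 2 and 1 counts in the DKO libraries and 30, 18 and 21 in the WT libraries, and its log2 fold change was -3.79 without DKO replicate 1. RPS6KA2, an RSK kinase gene, rose by 1.21. Of 9 tested MAP kinase phosphatase genes, 6 were higher and 2 lower (median 0.48), where 23.3% of all tested genes were higher and 22.2% lower. Only 4 were higher without DKO replicate 1, DKO replicate 2, WT replicate 2 or WT replicate 3. DUSP5 and DUSP7 rose by 1.01 and 0.74. DUSP10 fell to 0.397 ± 0.127 FPKM in DKO, against 1.81 ± 0.259 FPKM in WT (log2 fold change -1.97, edgeR adjusted p = 0.00028). DUSP9 had 0 counts in every DKO library and was at least 12.9-fold lower.

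Among 34 tested immediate-early genes outside the 10, 17 were lower and 9 higher (median -0.41, and 11 lower without WT replicate 3). Of all tested genes, 22.2% were lower and 23.3% higher. TNFAIP3, an inhibitor of NF-kB signalling, fell to 3.04 ± 0.286 FPKM in DKO, against 26.6 ± 1.07 FPKM in WT (log2 fold change -3.09, edgeR adjusted p = 5.9e-06). RHOB, an endosomal GTPase gene, fell to 91.9 ± 7.7 FPKM in DKO, against 256 ± 8.71 FPKM in WT (log2 fold change -1.43). Others rose. CCN2, a matricellular growth regulator, reached 429 ± 23.7 FPKM in DKO, against 130 ± 4.37 FPKM in WT (log2 fold change 1.77, edgeR adjusted p = 8.7e-06). HBEGF, an EGF receptor ligand gene, had 98.8 ± 1.05 FPKM in DKO and 34.2 ± 2.11 FPKM in WT (log2 fold change 1.57).

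Of 28 tested genes known as AP-1 targets, 14 were higher and 5 lower, where 23.3% of all tested genes were higher and 22.2% lower, and the median was 0.44. Without DKO replicate 3 the count was 14 higher and 10 lower, where 36% of all tested genes were higher and 38.6% lower. HBEGF, described above, belongs to this list too. GJA1, the connexin 43 gene, reached 377 ± 63.7 FPKM in DKO, against 59.1 ± 1.4 FPKM in WT (log2 fold change 2.71, edgeR adjusted p = 8.7e-06), and CLU, a secreted chaperone gene, 201 ± 23.9 FPKM in DKO, against 55.6 ± 2.38 FPKM in WT (log2 fold change 1.90). PLAU, the urokinase gene, fell to 1.8 ± 0.169 FPKM in DKO, against 22.6 ± 0.37 FPKM in WT (log2 fold change -3.60, edgeR adjusted p = 6.6e-06). Of 9 tested EGR1 targets, 2 were higher and 3 lower (5 lower without DKO replicate 3), with a median of -0.11. The decreases were FN1 (fibronectin, -3.10), F3 (tissue factor, -3.02) and VEGFA (-0.93), and ICAM1 rose by 1.15.

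The last lists hold regulators of short-lived mRNAs and proteins. Of 8 genes for proteins that bind AU-rich elements, 4 were lower and none higher (median -0.36), and 0 were higher at an unadjusted p below 0.05 by edgeR, DESeq2 or limma-voom. The edgeR count was 7 lower and 1 higher without DKO replicate 3, and 2 lower without WT replicate 1, 2 or 3. Of all tested genes 22.2% were lower, and 38.6% without DKO replicate 3. KHSRP, a decay factor gene, fell to 127 ± 10.3 FPKM in DKO, against 225 ± 1.72 FPKM in WT (log2 fold change -0.76, edgeR adjusted p = 0.00024), and ZFP36L2 fell by 0.86. TIA1 (-0.69) and ZFP36 (-0.43) were not called without any 1 WT sample, nor was ZFP36 without DKO replicate 2. Of 7 genes for factors in the turnover of JUN and FOS proteins, 3 were lower and 1 higher (5 lower without DKO replicate 3), with a median of -0.55. The ubiquitin ligase gene COP1 fell by 0.94. TRIB1, a COP1 adaptor gene, fell by 0.63 (edgeR adjusted p = 0.0099, and 0.051 without WT replicate 3). TRIB2, another adaptor gene, rose by 2.81, to 3.51 ± 0.661 FPKM in DKO, against 0.51 ± 0.0173 FPKM in WT. DET1, in the same list, was not called (log2 fold change 0.24, edgeR adjusted p = 0.31).

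**Figure D4:**
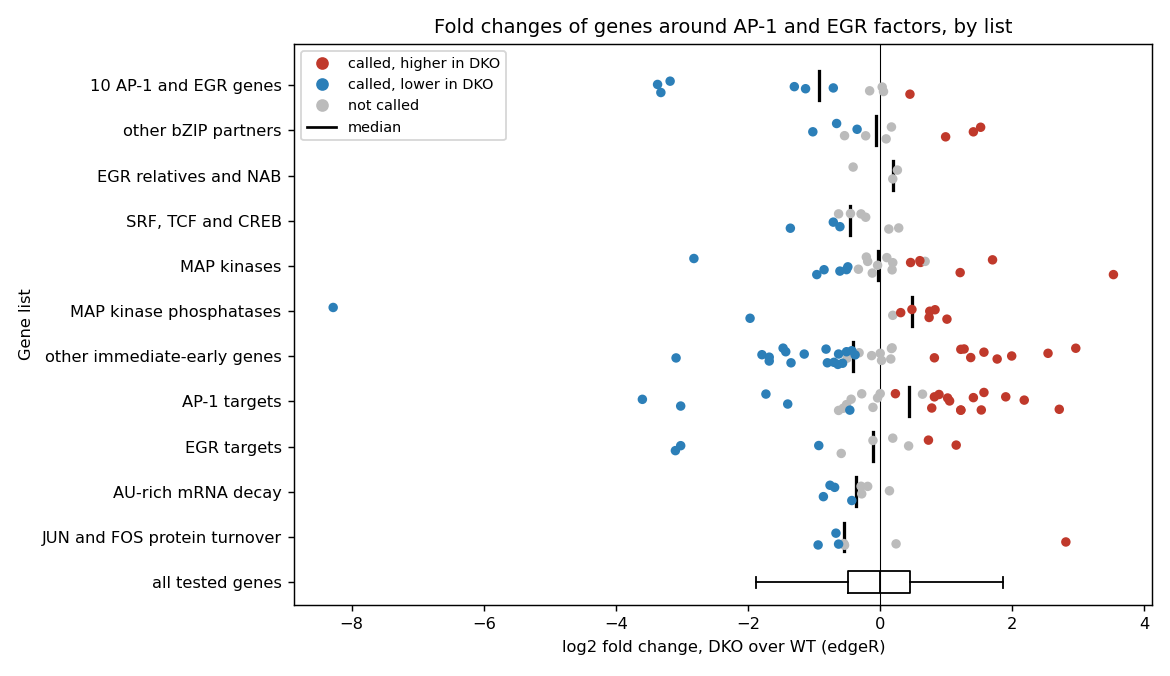
Log2 fold change, DKO over WT, of the tested genes of each list (points, coloured by call; black bar, median), with a box plot of all tested genes at the bottom (box, quartiles; whiskers, 1.5 times the box length). The 10 AP-1 and EGR genes have a median of -0.92, immediate-early genes outside the set -0.41 and AP-1 targets 0.44, and called genes of both directions occur in most lists. The DUSP9 point is a fitted value of a gene at 0 counts in DKO.

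The nearest tested gene on either side of each of the 10 was taken from the RefSeq gene order. Of these 20 neighbours, 7 were higher, 2 lower and 11 not called, a share of 45% called, close to the 45.5% of all tested genes. Without DKO replicate 3 the count was 9 higher and 6 lower (74.6% of all tested genes were then called), and without any 1 WT sample 4 higher and 2 lower. Beside JUNB, the peroxiredoxin gene PRDX2 fell by 1.30 (25.6, 24.2 and 35.33 FPKM in DKO, against 75.81, 73.77 and 70.91 FPKM in WT), while HOOK2 on the other side had a log2 fold change of 0.61 (edgeR adjusted p = 0.047, and not called without DKO replicate 2 or any 1 WT sample). Beside EGR3, RHOBTB2 rose by 2.19 and BIN3 was not called (0.31, and 0.16 and called without DKO replicate 3). Beside FOSB, neither RTN2 (-0.42, edgeR adjusted p = 0.056) nor ERCC1 (0.12) was called, but RTN2 was called without DKO replicate 3 (-0.59). Beside EGR1, the endoplasmic reticulum gene REEP2 rose by 2.20. FOS lies next to JDP2 and ATF3 near BATF3, which also encode leucine zipper factors. JDP2 had 5.66, 5.28 and 7.8 FPKM in DKO, against 8.67, 10.09 and 9.56 FPKM in WT (log2 fold change -0.54, edgeR adjusted p = 0.067, and -0.78 and called without DKO replicate 3). BATF3 had a log2 fold change of 0.17 (edgeR adjusted p = 0.50).

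**Figure D5:**
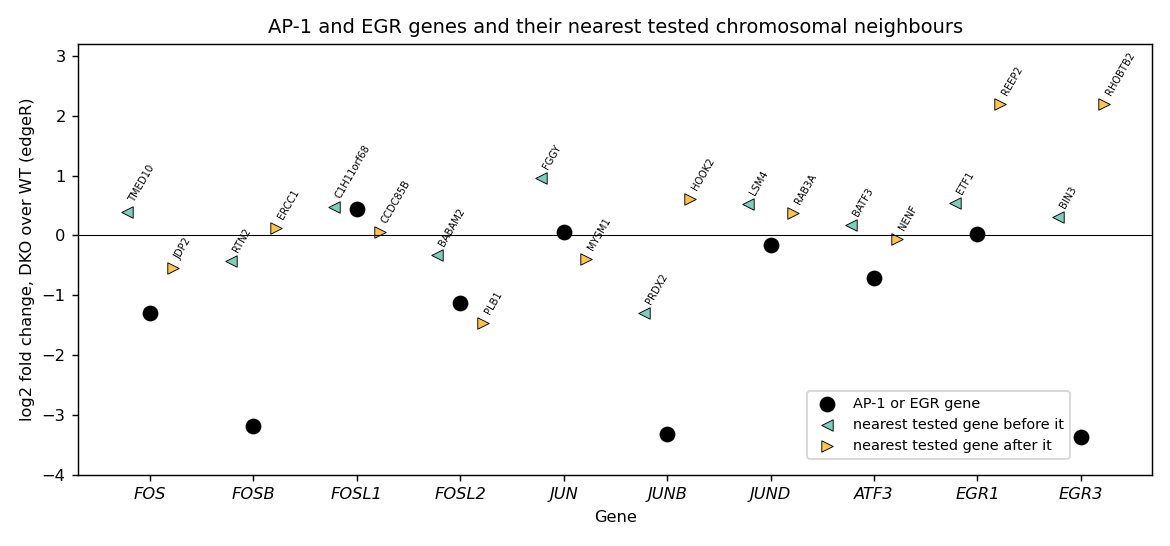
Log2 fold change, DKO over WT, of each of the 10 genes (black circles) and of the nearest tested gene on each side of it in the RefSeq gene order (triangles, named). JUNB at -3.32 stands between PRDX2 at -1.30 and HOOK2 at 0.61, and EGR3 at -3.37 between BIN3 at 0.31 and RHOBTB2 at 2.19.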

How the data were processed

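RNA from 3 DKO and 3 WT samples was analysed. Per the file headers, the authors deposited estimated counts per gene (5.8 to 6.5% of the values per sample were not whole numbers, but all 60 values of the 10 genes were) and FPKM values, scaled by the authors to transcript length and library depth. The submitters' processing notes name HISAT and Bowtie2. No version, counter, strand setting or build is stated in the sources used here. The table's 9 columns of 3 other samples and 6 TPM columns were not used.

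Rounded counts were tested in R 4.3.3 with edgeR 4.0.16 (TMM, default filter by group with a minimum count of 10). Each standard error is |log2 fold change| over the square root of F, and 95% intervals use the test's degrees of freedom. Alternatives used DESeq2 1.42.0, limma 3.58.1 and other settings. Tests were checked on simulated data, in which far fewer genes were changed than were called here. There edgeR recovered 3% of 1.5-fold, 38% of 2-fold and 96% of 4-fold changes, and 6.7% of its calls were false. False calls were 18.8% for DESeq2 and 6.6% for limma-voom. Small differences can thus be missed, and a gene not called is not shown to be unchanged. Family sums and shares of FPKM were compared by exact permutation. FPKM totals differed by genotype, at 619561 to 642646 in the DKO libraries and 592067 to 596256 in the WT libraries. Comparisons of FPKM between the groups carry this offset.

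The 10 genes and the lists were chosen with earlier results of these data known. Named genes were the 10, up to 4 called members of smallest adjusted p per list, and 3 most alike profiles. Of 190 listed genes, 186 were in the table (1, JDP2, matched by its RefSeq gene ID). ATF2, MAFG, EGR2, EGR4, MAPK13, MAPK14, DET1 and the neighbours were named after values were seen, as were further genes of the marker lists. Of the gene IDs, 92.7% matched RefSeq assembly mChlSab1.0.hap1, used for gene order. In it FOSL2 overlaps 1 other gene, a long non-coding RNA.

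Replicate numbers did not pair the samples. Sampling depth is given as counts beside the least abundant genes.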

Additional observations from a re-analysis of the deposited data

How the results depend on the processing

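Over the 17 alternatives, FOS, FOSB, FOSL2, JUNB, ATF3 and EGR3 kept their direction and stayed called, with adjusted p-values of at most 0.012, 0.00059, 0.0058, 0.00032, 0.027 and 0.00065. Their log2 fold changes ranged from -1.42 to -1.13, -3.30 to -2.48, -1.29 to -1.06, -3.41 to -3.25, -0.79 to -0.65 and -3.48 to -1.30. The smallest values of FOSB and EGR3 came from limma on log2(FPKM + 1), where the pseudocount is large beside their levels. FOSL1 stayed positive (0.36 to 0.50 over samples left out in turn, 0.45 at a threshold of 0.01), but with the replicate number as a block it was not called (0.44, adjusted p = 0.064), and 0 genes of the 10 were then called higher, as at the 0.01 threshold and without any 1 WT sample (range over samples left out, 0 to 1). Deviations of same-numbered samples from their group means correlated at 0.02, -0.28 and -0.29. With WT replicate 2, DKO replicates 1 and 2 correlated at -0.26 and -0.28, and DKO replicate 3 at 0.31. The DKO deviations thus mostly set replicate 3 against the others, and they cannot show whether the numbers pair the samples. The block called 2220 genes higher and 2265 lower and changed no call of the other 9 genes.

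Genes with small differences changed sign, none of them called. JUN ranged from -0.042 to 0.10 and EGR1 from -0.037 to 0.093 when samples were left out, and EGR1 was -0.0024 without a filter, -0.0091 with totals without the 100 most abundant genes, -0.0089 by limma on log2(FPKM + 1) with or without a filter and -0.0090 with a pseudocount of 0.1. JUND ranged from -0.24 to -0.075 over samples left out and was called without DKO replicate 3. The DKO minus WT difference of summed EGR1 and EGR3 ranged from -6.35 to 0.738 FPKM. Over all genes, 2105 to 4770 were called higher and 2146 to 5110 lower when samples were left out, and 1950 higher at the 0.01 threshold. Counts not scaled to length weight the longer transcripts more. With them, the share of the FOS family differed by 30.7 percentage points for FOSL1 and -14.0 for FOSL2, and the share of the JUN family by 33.6 for JUN and -42.5 for JUNB. The JUN family sum in DKO was then 51.2% of WT, and the ratios of the FOS to the JUN family and of JUNB to JUN differed by 0.181 and -1.36. All of these kept their direction. No scaling moved the median of all genes by over 0.1. Depth limits EGR3 most, with 30 counts in the DKO libraries together. Leaving out samples for the neighbouring genes was added after seeing the data.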
